A study of Mus musculus with 6 samples.

Results

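The 9 genes described here encode the ELMO scaffolds Elmo1, Elmo2 and Elmo3, the DOCK exchange factors Dock1, Dock2, Dock5 and Dock8, and the GTPases Rac1 and Rac2. They were chosen by gene symbol from the 28752 genes measured, with results of this contrast already known, so their levels and differences between groups are given as a description and no test is read from them. All 9 passed the filter on low counts, together with 18348 genes in all that were tested. They were split by where each gene is usually described. Dock2, Dock8 and Rac2 were taken as leukocyte-typical, Elmo2, Elmo3, Dock1, Dock5 and Rac1 as epithelial or broadly expressed, and Elmo1 as known from leukocytes and from other cells.

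ELMO proteins have no catalytic activity of their own. They bind DOCK proteins, which load Rac with GTP, and active Rac drives the actin branching behind cell spreading, migration and the uptake of dying cells. In the gut, Rac1 is the broadly expressed Rac of the epithelium, whereas Rac2 and Dock2 are best known from blood cells, where they serve lymphocyte migration and the neutrophil oxidase. Phosphatidylserine receptors and integrins act upstream of the ELMO-DOCK complex, and the WAVE and Arp2/3 complexes act downstream of Rac.

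The study asked what overexpression of circEZH2_005, a circular RNA, does to the transcriptome of mouse intestinal crypt stem cells under hypoxia/reoxygenation (H/R), a culture model of intestinal ischaemia and reperfusion. Lgr5+ cells were sorted by their GFP from Lgr5-GFP mice before being grown into organoids. The vector group (genotype label WT, n = 3) and the circEZH2_005 overexpression group (adenovirus, n = 3) were both put through H/R, with an infection time of 72 h in the labels and 4 h in 2% O2, 5% CO2 and 93% N2, so no sample was free of H/R. The study's methods describe its mice as male C57BL/6 without saying whether that covers the Lgr5-GFP donors. The sources used here do not say which animals stand behind each sample or what promoter the virus carries, so p-values measure the spread between these samples, which may be technical. The libraries were selected with oligo(dT), and the circular RNA itself is not measured in the gene table.

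The total count per sample was between 71506487 and 79919893. The least taken as above 0, 3 counts, corresponded to 0.0377 to 0.0419 CPM (counts scaled to library size and the TMM normalisation factor). Epithelial identity was plain, with Epcam at 557 ± 8.39 FPKM (fragments scaled to gene length and library size) in vector and 586 ± 24.9 FPKM in circEZH2_005 samples (mean ± SD, n = 3 each). Lgr5 was detected at 1.39 ± 0.28 and 0.713 ± 0.0723 FPKM and passed the test as lower (edgeR adjusted p = 0.0434). Vector replicate 2 stood apart from the other vector samples in its leukocyte transcripts: the summed FPKM of 8 pan-leukocyte markers was 14.6, 48.2 and 19.9 in vector replicates 1, 2 and 3, and 112, 74.3 and 54.7 in circEZH2_005 replicates 1, 2 and 3. Log2 fold changes without vector replicate 2 are therefore given for each member below.

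Elmo1 (ENSMUSG00000041112, chr13:20090596-20608353, plus strand, mm10), best known for engulfment and cell migration, had 1 level in each group. It was present at 1.43, 1.55 and 1.51 FPKM in the vector samples and at 3.20, 3.27 and 3.11 FPKM in the circEZH2_005 samples. The groups did not overlap and the spread within each was narrow, and vector replicate 2 sat with the other vector samples. The counts behind these values ranged from 1428 to 1603 in vector and from 3309 to 3674 in circEZH2_005 samples. The fitted log2 fold change was 1.19 ± 0.08 (SE, 95% interval 0.99 to 1.38), a 2.28-fold difference, and 1.20 ± 0.10 without vector replicate 2.

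Elmo1 was the 1 member of 9 called higher by edgeR at an adjusted p under 0.05, where 2.69% of all tested genes were called higher. No member was called lower, where 0.986% of all genes were. At an unadjusted p under 0.05, 7 members were higher and 0 lower, where 14.0% of all genes were higher and 9.72% lower. DESeq2 called 6 members higher and 0 lower at an adjusted p under 0.05, where it called 8.96% of all genes higher and 4.61% lower. Of the 9 members, 7 had every circEZH2_005 sample above every vector sample in CPM, against 16.4% of all tested genes. Because the genes were named with this contrast in view, nothing is read from these counts. The median log2 fold change of the 9 members was 0.37, and that of all tested genes was 2.15e-05.

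**Figure D1:**
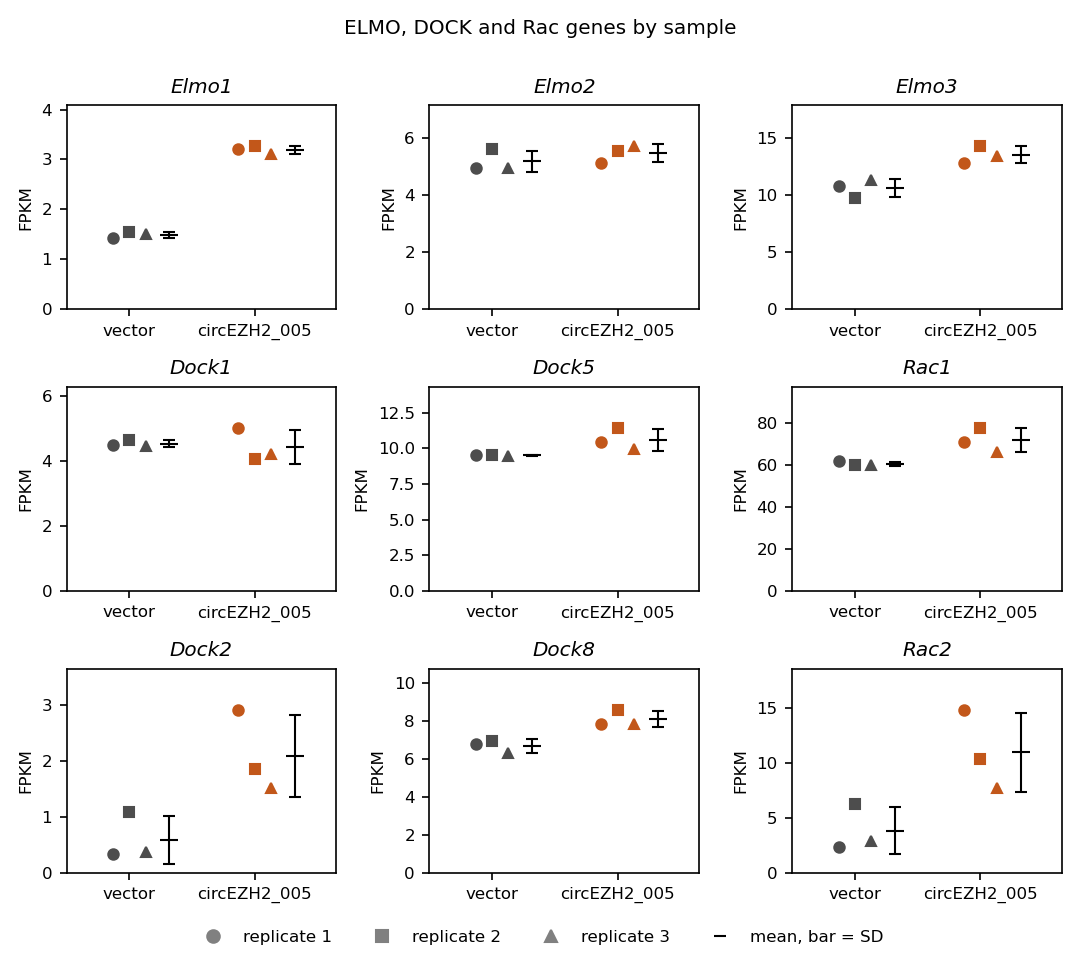
FPKM of the 9 genes in each of the 6 samples, on linear axes from 0, with marker shape giving the replicate and bars the mean ± SD of 3 samples. Elmo1 forms 2 tight levels, whereas Dock2 and Rac2 spread widely within both groups and are highest in circEZH2_005 replicate 1.

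The promoters of Elmo1 and Dock2 are shown because these 2 genes, both above all vector samples in every circEZH2_005 sample, differed in how they varied between samples. They come from RefSeq on GRCm38.p6, with 250 bases before and 50 bases after the transcript start, and are written 5′ to 3′ in the direction of the gene. Of the 9 members, 5 had a promoter in that table (Elmo1, Elmo2, Dock1, Dock2 and Dock8), with 8 promoters in all. Elmo3, Dock5, Rac1 and Rac2 had none. Capitals mark a searched motif.
Elmo1 first start, chr13:20090257-20090556, plus strand: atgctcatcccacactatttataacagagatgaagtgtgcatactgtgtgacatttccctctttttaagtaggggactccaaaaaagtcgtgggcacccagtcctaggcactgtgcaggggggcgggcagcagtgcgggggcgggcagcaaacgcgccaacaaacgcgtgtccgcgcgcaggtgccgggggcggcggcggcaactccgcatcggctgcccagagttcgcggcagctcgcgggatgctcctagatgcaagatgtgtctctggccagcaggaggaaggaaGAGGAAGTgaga
Elmo1 internal start, chr13:20472740-20473039, plus strand: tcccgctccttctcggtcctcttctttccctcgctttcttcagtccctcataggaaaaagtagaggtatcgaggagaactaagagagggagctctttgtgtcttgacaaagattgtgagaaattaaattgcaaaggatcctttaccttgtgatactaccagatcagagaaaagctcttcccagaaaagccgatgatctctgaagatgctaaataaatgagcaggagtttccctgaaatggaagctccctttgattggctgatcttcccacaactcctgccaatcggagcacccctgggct
Dock2, chr11:34783856-34784155, minus strand: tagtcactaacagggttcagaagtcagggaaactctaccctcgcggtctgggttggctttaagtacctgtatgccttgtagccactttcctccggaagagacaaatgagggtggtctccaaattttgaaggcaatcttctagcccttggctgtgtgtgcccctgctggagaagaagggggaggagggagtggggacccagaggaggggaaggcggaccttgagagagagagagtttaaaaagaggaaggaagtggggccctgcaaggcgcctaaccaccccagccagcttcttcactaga

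Both strands of each promoter were searched for 3 letter patterns: GAGGAAGT, an ETS and PU.1 type motif, TGANTCA, the AP-1 motif, and 2 copies of GAAA with 2 bases of any kind between them, an interferon-response type motif. No pattern holds another. The only match among the 8 promoters was GAGGAAGT on the plus strand of the first Elmo1 promoter, beginning at base 39 after the start. Near matches were not counted: the Dock2 promoter holds aaggaagt, which differs from GAGGAAGT in its first base. Of 32851 promoters of the same length, 3.2% held GAGGAAGT, 7.81% held TGANTCA and 3.44% held the spaced GAAA pair. The first Elmo1 promoter had a GC content of 60.0%, the internal one 46.0%, and that of Dock2 54.3%. The table counts reads per gene, so the use of either Elmo1 start was not measured.

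The other ELMO genes moved less. Elmo2, a broadly expressed scaffold (ENSMUSG00000017670, chr2:165288031-165326479, minus strand), was measured at 4.96, 5.60 and 4.96 FPKM in vector and 5.10, 5.56 and 5.72 FPKM in circEZH2_005 samples. These groups overlapped, and the log2 fold change was 0.17 ± 0.10 (SE, interval -0.07 to 0.41). Elmo3 (ENSMUSG00000014791, chr8:105305601-105310760, plus strand) was the most abundant ELMO gene, at 10.8, 9.74 and 11.3 FPKM in vector and 12.8, 14.3 and 13.4 FPKM in circEZH2_005 samples. Its groups did not overlap, and its log2 fold change was 0.44 ± 0.11 (SE, interval 0.19 to 0.69), or 0.38 ± 0.11 without vector replicate 2.

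Elmo1 took a larger share of the ELMO family in the circEZH2_005 samples. Elmo1 made up 8.32%, 9.15% and 8.51% of the summed FPKM of the 3 ELMO genes in the vector samples, and 15.2%, 14.2% and 14.0% in the circEZH2_005 samples. Elmo3 stayed the largest share, between 57.7% and 63.5% in every sample. Elmo2 made up 28.0% to 33.2% of the sum in vector and 24.1% to 25.7% in circEZH2_005 samples. The summed level of the family was 16.9 to 17.7 FPKM in vector and 21.1 to 23.1 FPKM in circEZH2_005 samples.

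**Figure D2:**
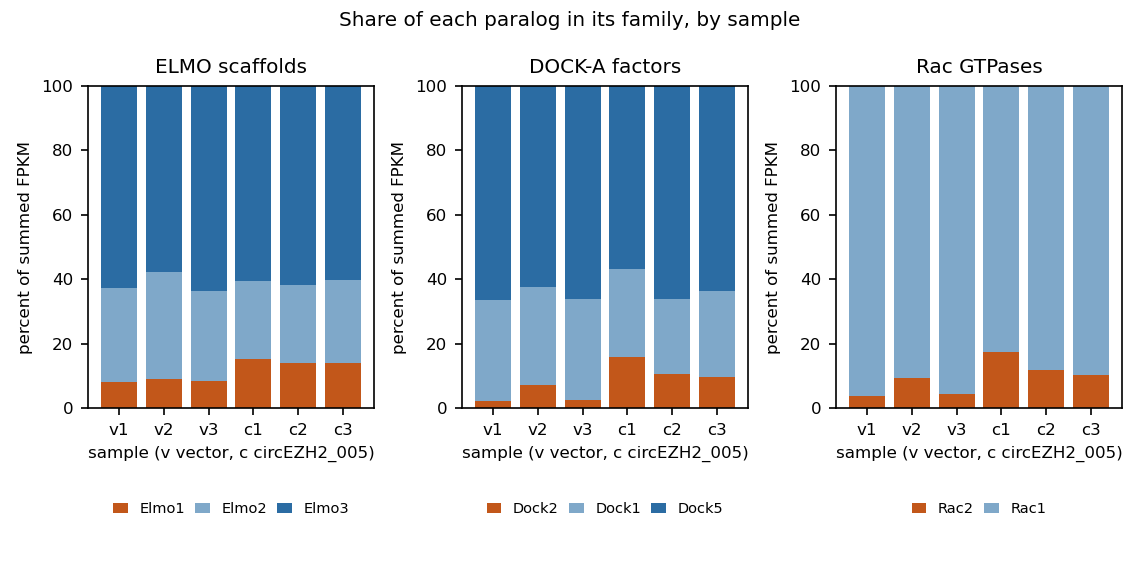
Stacked bars of the percent of summed FPKM taken by each paralog in vector (v1 to v3) and circEZH2_005 (c1 to c3) samples, for ELMO genes, for Dock1, Dock2 and Dock5, and for Rac genes. The Elmo1 share is between 8.32% and 9.15% in vector and between 14.0% and 15.2% in circEZH2_005 samples, and the Dock2 and Rac2 shares are uneven within each group.

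Among the DOCK factors that pair with ELMO outside the blood, Dock1 (DOCK180, ENSMUSG00000058325, chr7:134670654-135023927, plus strand), the founding partner of ELMO, had overlapping groups. Its 3 vector samples held 4.48, 4.65 and 4.45 FPKM and its 3 circEZH2_005 samples 5.01, 4.05 and 4.19 FPKM. The log2 fold change was 0.05 ± 0.08 (SE, interval -0.13 to 0.22), and its sign turned in 2 of 14 alternative analyses. Dock5 (ENSMUSG00000044447, chr14:67752135-67933432, minus strand), the closest relative of Dock1, was measured at 9.52, 9.55 and 9.43 FPKM in vector and 10.5, 11.4 and 9.92 FPKM in circEZH2_005 samples. The Dock5 groups did not overlap but lay close, with a log2 fold change of 0.25 ± 0.09 (SE, interval 0.03 to 0.47).

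Dock2 (ENSMUSG00000020143, chr11:34226815-34783892, minus strand), the main Rac exchange factor of lymphocytes, had the largest log2 fold change of the 9 and the widest spread. It was measured at 0.327, 1.09 and 0.363 FPKM in vector replicates 1, 2 and 3, from 298, 994 and 352 counts. In circEZH2_005 replicates 1, 2 and 3 it was at 2.92, 1.85 and 1.51 FPKM, from 2848, 1890 and 1461 counts. Vector replicate 2 stood well above its group mates, as did circEZH2_005 replicate 1 above its own, although the groups did not overlap. The log2 fold change was 1.90 ± 0.46 (SE, interval 0.82 to 2.98), and 2.66 ± 0.26 without vector replicate 2, a move of more than 1.5 times on the linear scale. Dock2 was not called by edgeR with all 6 samples. Among 14 alternative fits it was called without vector replicate 2 and by DESeq2, and it passed the separate rule of a fold change over 2 with an unadjusted p under 0.05.

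Rac2 (ENSMUSG00000033220, chr15:78559167-78572783, minus strand), the GTPase of blood cells that activates the neutrophil oxidase, varied in the same way as Dock2. Its levels were 2.36, 6.26 and 2.85 FPKM in vector and 14.9, 10.3 and 7.73 FPKM in circEZH2_005 samples. The sample order within each group was that of Dock2 in every case. Its log2 fold change was 1.60 ± 0.37 (SE, interval 0.74 to 2.46) with all samples and 2.14 ± 0.25 without vector replicate 2. Rac2 too was not called with all 6 samples. It was called in 3 of the 14 alternative fits, which were leaving out vector replicate 2, dropping genes with a mean under 1 CPM, and DESeq2, and it too passed the fold rule.

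Dock8 (ENSMUSG00000052085, chr19:24999534-25202432, plus strand), an exchange factor acting mainly on Cdc42 and known from an immune deficiency, did not vary as Dock2 and Rac2 did. It was measured at 6.79, 6.97 and 6.29 FPKM in vector and 7.87, 8.61 and 7.85 FPKM in circEZH2_005 samples, with no overlap. Its spread within each group was narrow and vector replicate 2 did not stand out. The log2 fold change was 0.37 ± 0.10 (SE, interval 0.15 to 0.59), close to that of the epithelial members. Dock8 was above Dock2 in FPKM in each of the 6 samples. Over all 6 samples its mean was 7.40 FPKM, as was that of Rac2. The cell source of either transcript was not tested.

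Rac1 (ENSMUSG00000001847, chr5:143503634-143528036, minus strand), the Rac on which ELMO-DOCK complexes act in most cells, was by far the most abundant member. It was present at 61.5, 59.6 and 59.9 FPKM in vector and 71.0, 77.5 and 66.2 FPKM in circEZH2_005 samples, with no overlap. Its log2 fold change was 0.34 ± 0.10 (SE, interval 0.10 to 0.57). In GENCODE M21, 51.4% of the exon bases of Rac1 are shared with Daglb on the opposite strand, and whether counting used strand is not given in the sources used here, so reads of the 2 genes may have been shared. Daglb had 2308 to 3111 counts in vector and 1637 to 1679 in circEZH2_005 samples, a log2 fold change of -0.64, opposite in sign to that of Rac1. Rac2 shares no exon bases with another gene, and of the other members Elmo1, Elmo3 and Dock2 share 3.20%, 3.19% and 4.03% of theirs.

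Rac2 formed 3.70%, 9.51% and 4.54% of the summed Rac1 and Rac2 FPKM in vector replicates 1, 2 and 3. In circEZH2_005 replicates 1, 2 and 3 the share was 17.3%, 11.8% and 10.5%. Dock2 likewise formed 2.28%, 7.12% and 2.55% of the summed Dock1, Dock2 and Dock5 FPKM in vector, and 15.9%, 10.7% and 9.67% in circEZH2_005 samples. In every sample Rac1 was above Rac2, and Dock5 was above Dock1 and Dock2. For the 5 members not given so far, the log2 fold changes without vector replicate 2 were 0.22 for Elmo2, 0.06 for Dock1, 0.25 for Dock5, 0.39 for Dock8 and 0.32 for Rac1.

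**Figure D3:**
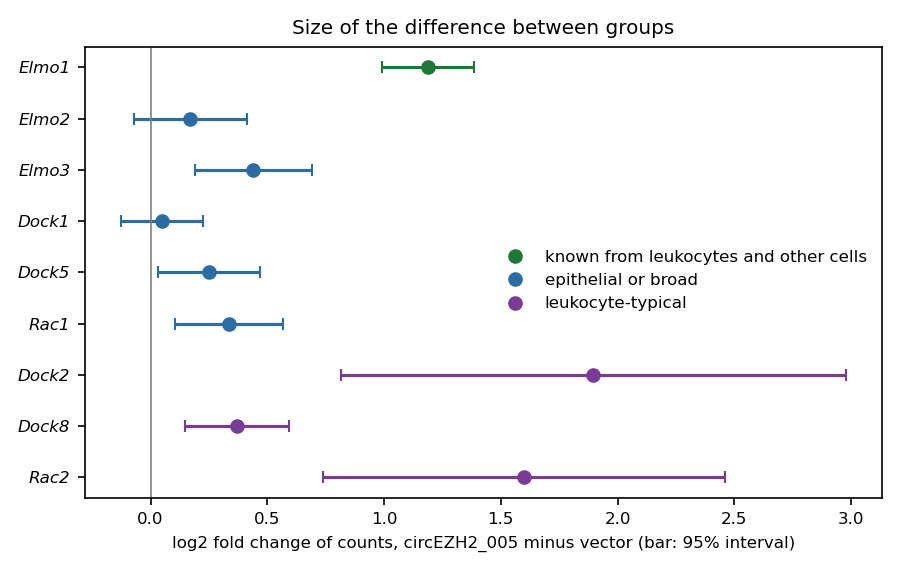
Fitted log2 fold change of counts for the 9 genes, circEZH2_005 minus vector, with 95% intervals as bars, coloured by where the gene is usually described. Elmo1 has a narrow interval of 0.99 to 1.38, Dock2 and Rac2 have wide ones, and those of Elmo2 and Dock1 span 0.

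By level in vector samples, the order from high to low was Rac1, Elmo3, Dock5, Dock8, Elmo2, Dock1, Rac2, Elmo1 and Dock2. Among neighbours in this order, only Dock1 and Rac2 overlapped over their 3 vector samples. Beyond its neighbours, vector Rac2 (2.36 to 6.26 FPKM) also overlapped Elmo2 (4.96 to 5.60 FPKM). In the circEZH2_005 samples Dock1 and Rac2 were apart and in the opposite order, with the mean of Dock1 at 0.402 times that of Rac2. There Rac2, at 7.73 to 14.9 FPKM, overlapped Dock8, Dock5 and Elmo3, so its rank was not settled in either group. Over all 6 samples, Rac1 lay above 96.1% of tested genes in mean FPKM, Elmo3 above 79.7%, Elmo1 above 49.0% and Dock2 above 40.4%.

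The leukocyte-typical members were set beside marker genes of other cell types that the culture could hold. Fewer cells of a type and less RNA per cell cannot be told apart in bulk samples. All 8 pan-leukocyte markers, among them Ptprc (CD45) and Coro1a, had every circEZH2_005 sample above every vector sample. So did all 8 T cell markers, among them Cd3g and Cd8a, against 16.4% of all tested genes. The median log2 fold changes of the 2 lists were 1.68 and 1.93. None of these 16 genes passed edgeR's adjusted threshold, although all 16 were higher at an unadjusted p under 0.05 (14.0% of all genes were) and DESeq2 called 13 higher (8.96% of all genes). The T cell sum was 11.0, 38.2 and 12.4 FPKM in vector and 96.3, 70.6 and 52.0 FPKM in circEZH2_005 samples, so vector replicate 2 was again the highest of its group.

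Markers of other lineages were mixed. A marker was counted as separate where every circEZH2_005 sample was above every vector sample, as in 16.4% of all tested genes. By edgeR, 2.69% of all tested genes were called higher. The summed B and plasma cell markers were at 3.52 to 6.44 FPKM in vector and 6.07 to 26.0 FPKM in circEZH2_005 samples, with 3 of 7 markers separate. The summed myeloid markers were at 18.0 to 26.5 and 19.1 to 35.0 FPKM, with 2 of 9 separate and 1, the integrin Itgax (log2 fold change 1.86), called higher. Stromal markers summed to 0.627 to 1.08 FPKM in vector and 0.382 to 1.26 FPKM in circEZH2_005 samples, and endothelial markers to 0.211 to 0.435 and 0.626 to 0.964 FPKM, with Cdh5 and Kdr at 0 counts in some samples. The endothelial sums did not overlap, but only 1 of the 5 endothelial markers was separate. That was Pecam1 (CD31), also found on leukocytes, which was called higher (log2 fold change 1.93, edgeR adjusted p = 0.0377). Cdh5, Kdr, Tek and Vwf each overlapped between the groups. Tuft cell markers summed to 3.06 to 4.12 and 3.54 to 3.73 FPKM, with Il25 at 0 counts in some samples.

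The epithelial markers were higher as a sum, at 3444 to 3519 FPKM in vector and 4307 to 4964 FPKM in circEZH2_005 samples. The rise was uneven, with vector and circEZH2_005 means of 373 and 790 FPKM for Krt20, 986 and 1376 for Krt8, and 457 and 631 for Vil1. The means were 224 and 285 FPKM for Cldn7, 557 and 586 for Epcam, and 181 and 194 for Cdh1. Krt18 was at 107 and 115 FPKM, and Krt19 at 593 and 583 FPKM. Of these 8 markers, 6 were separate (16.4% of all tested genes were). The keratins Krt8 and Krt20, 2 of the 8, were called higher (2.69% of all tested genes were). The Lgr5 stem cell markers had a median log2 fold change of -0.55, with 2 of 6 (Lgr5 and Smoc2) called lower (0.986% of all tested genes were). The Wnt target genes Axin2 and Rnf43 of the same list had positive changes of 0.31 and 0.32 that did not pass. Among 14 alternatives the call of Krt20 held in 12, that of Smoc2 in 10, those of Krt8 and Itgax in 8 and that of Lgr5 in 5, and the call of Pecam1 held in 5 of 12. The part of these shifts in the level of Elmo3, Dock5, Dock8 and Rac1 was not tested.

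Dock2 and Rac2 moved with the leukocyte markers from sample to sample. Per 100 FPKM of summed pan-leukocyte markers, Dock2 was at 2.23, 2.26 and 1.83 FPKM in vector and 2.60, 2.49 and 2.76 FPKM in circEZH2_005 samples. Rac2 was at 16.2, 13.0 and 14.4 per 100 in vector and 13.3, 13.9 and 14.1 per 100 in circEZH2_005 samples. Rac2 differed 3.03-fold between the groups in fitted counts, with means of 3.83 FPKM in vector and 11.0 FPKM in circEZH2_005 samples. The group ranges of its FPKM ratio to leukocyte markers overlapped. Dock2 per 100 was a little higher in all 3 circEZH2_005 samples than in any vector sample.

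Elmo1 and Dock8 did not keep a ratio to these markers. Elmo1 was at 9.76, 3.21 and 7.59 FPKM per 100 FPKM of pan-leukocyte markers in vector replicates 1, 2 and 3, and at 2.85, 4.40 and 5.69 in circEZH2_005 samples. Vector replicate 2 and circEZH2_005 replicate 3 had nearly the same marker sum (48.2 and 54.7 FPKM), and Elmo1 was at 1.55 FPKM in the first and 3.11 FPKM in the second. Dock8 was at 6.97 and 7.85 FPKM in those 2 samples, Dock2 at 1.09 and 1.51 FPKM, and Rac2 at 6.26 and 7.73 FPKM. The part of leukocyte RNA in the differences of the 9 members was not tested.

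**Figure D4:**
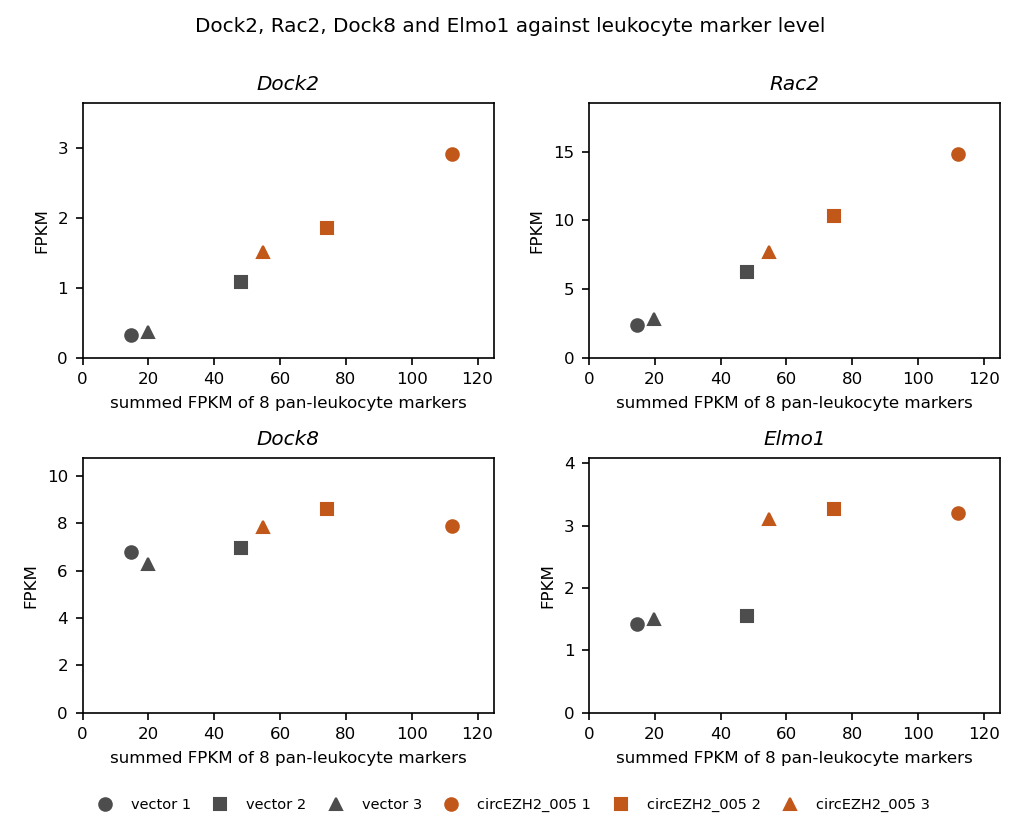
FPKM of Dock2, Rac2, Dock8 and Elmo1 against the summed FPKM of 8 pan-leukocyte markers, 1 point per sample, colour by group and shape by replicate, linear axes from 0. Dock2 and Rac2 rise along the marker sum through both groups, while Elmo1 lies at 1.43 to 1.55 FPKM in all vector samples and 3.11 to 3.27 FPKM in all circEZH2_005 samples.

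As a description over 6 samples that share group and library, the deviations of log2 CPM from the group means were correlated at r = 0.988 between Dock2 and Rac2, 0.982 between Dock2 and Ptprc, and 0.993 between Rac2 and Ptprc. Elmo1 had r = 0.036 with Dock2, 0.065 with Rac2, 0.117 with Ptprc and 0.772 with Epcam. Dock8 had r = -0.052 with Ptprc. Out of 11601 tested genes whose mean reached 1 FPKM, the 5 whose log2 CPM was most like that of Elmo1 were Gprc5a, Lama3, Eno3, Ceacam18 and Hspa12a (r = 0.996 to 0.999 over 6 samples, with the group difference included). For the deviations from the group means, r with Elmo1 was 0.582 to 0.919 over these 5 genes. Those most like Dock2 were Serpina3g, Cytip, Prkch, Arhgap45 and Prrt1. Those most like Rac2 were Srgn, Arhgap30, Trac, Ikzf3 and Was, of which Trac encodes the T cell receptor alpha constant region.

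The wider Rac pathway was read from 9 lists of 117 genes, of which 112 were tested. By edgeR, 14 were higher and 0 lower at an adjusted p under 0.05 over all tested genes (12.5% of the lists' tested genes were higher, against the 2.69% of all genes given above). At an unadjusted p under 0.05, 44 were higher and 9 lower, against 14.0% and 9.72% of all genes, and DESeq2 called 32 higher and 4 lower after adjustment, against 8.96% and 4.61% of all genes. The median log2 fold change over the lists was 0.21. Among 15 list genes taken as leukocyte-typical, 5 were called higher and the median was 1.70. Among the other 97, 9 were called higher and the median was 0.19. The count turned on single samples: 0 genes were called higher without vector replicate 1 or without vector replicate 3 (33 and 34 at an unadjusted p under 0.05), 22 without vector replicate 2, and 7, 3 and 4 without circEZH2_005 replicates 1, 2 and 3.

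Of the 7 other DOCK genes, 1 was called. Dock11, which acts on Cdc42 and is common in lymphocytes, rose from 3.52 ± 0.658 to 5.48 ± 0.673 FPKM (log2 fold change 0.72 ± 0.13, adjusted p = 0.0362), a call lost in 9 of 14 alternatives. Dock10, its lymphocyte-typical relative, was at 0.637 ± 0.421 and 1.98 ± 0.762 FPKM without passing (1.71 ± 0.44, adjusted p = 0.0708). Without vector replicate 2 its log2 fold change was 2.38 ± 0.30 and it was called. The log2 fold changes of Dock3, Dock4, Dock6 and Dock9 were 0.06, -0.67, 0.40 and -0.14, and none of these 4 passed. Dock3 and Dock4, which like Dock1 can pair with ELMO, were scarce, with means of 0.124 FPKM or less in both groups.

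Upstream of ELMO-DOCK, 1 of 21 tested receptors and adaptors was called. Rhog, the GTPase whose active form binds ELMO and recruits it to the membrane, rose from 16.8 ± 0.746 to 23.0 ± 0.846 FPKM (log2 fold change 0.54 ± 0.09, adjusted p = 0.0271). It was called in 8 of 14 alternatives. The other tested genes of that list had changes of both signs, and the list's median log2 fold change was 0.18.

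Of 14 other Rac exchange factors tested, 1 was called: Prex1, which answers G-protein signals, was at 0.972 ± 0.374 and 2.37 ± 0.725 FPKM (1.36 ± 0.29, adjusted p = 0.0477). Of 15 other small GTPases, 3 were called. The actin and endosome GTPase Rhob rose from 6.12 ± 0.622 to 19.5 ± 4.67 FPKM (1.77 ± 0.19, adjusted p = 0.0106), Rhod from 7.55 ± 0.506 to 17.4 ± 3.08 FPKM (1.30 ± 0.16, adjusted p = 0.0144), and Rhof from 3.14 ± 0.102 to 6.85 ± 1.36 FPKM (1.21 ± 0.15, adjusted p = 0.0158). Each of these 3 was called in 12 of 14 alternatives and Prex1 in 4. The log2 fold changes of the 3 GTPases without vector replicate 2 were 1.83, 1.32 and 1.23, and that of Prex1 was 1.71. Prex1, not on the leukocyte-typical list, was at 8.31, 15.4 and 8.66 CPM in vector replicates 1, 2 and 3. It was at 34.2, 28.9 and 20.1 CPM in circEZH2_005 replicates 1, 2 and 3. Its sample order within each group was that of the pan-leukocyte sum.

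Of 16 Rac inhibitors, 3 were called higher. Fam49b (CYRI-B), which binds active Rac1 and limits WAVE activation, rose from 3.65 ± 0.192 to 4.82 ± 0.733 FPKM (0.48 ± 0.09, adjusted p = 0.0374). The Rac GTPase-activating genes Arhgap25 and Srgap3, named here after their values were seen, had log2 fold changes of 2.22 and 1.30 at a mean under 1 FPKM. That of Arhgap25 was 2.93 without vector replicate 2. The calls held in 5 of 14 alternatives for Fam49b, 4 of 14 for Arhgap25 and 5 of 12 for Srgap3. Of 11 kinase and scaffold effectors, 1 was called, the cofilin kinase Limk1 (1.44 ± 0.21, adjusted p = 0.0214), also named after its value was seen and called in 11 of 14 alternatives.

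Downstream, 3 of 11 WAVE complex genes were called. Nckap1l (HEM1), the blood-cell form of Nckap1, was at 0.967 ± 0.524 and 3.29 ± 1.07 FPKM (1.84 ± 0.37, adjusted p = 0.0433), and Abi3 was at 2.86 ± 0.828 and 5.95 ± 1.02 FPKM (1.14 ± 0.20, adjusted p = 0.0332). Wasf2 (WAVE2) rose from 16.9 ± 0.409 to 20.4 ± 1.33 FPKM (0.36 ± 0.08, adjusted p = 0.0477). The calls held in 7 of 14 alternatives for Nckap1l, 8 for Abi3 and 3 for Wasf2.

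None of 9 Arp2/3 genes passed edgeR's adjusted threshold. At an unadjusted p under 0.05, 2 were higher and 1 lower, where 14.0% of all tested genes were higher and 9.72% lower. DESeq2 called 1 Arp2/3 gene higher, where it called 8.96% of all genes higher. The most abundant, Arpc2 and Actr3, had log2 fold changes of 0.16 ± 0.09 and 0.06 ± 0.09 (adjusted p = 0.313 and 0.772). Of 8 NADPH oxidase subunits, 1 was called: Ncf1 (p47phox), a partner of Rac2 in phagocytes, was at 1.18 ± 0.494 and 3.56 ± 0.957 FPKM (1.67 ± 0.30, adjusted p = 0.0342), in 7 of 14 alternatives. Dock11, Nckap1l, Abi3, Ncf1 and Arhgap25 are the 5 called genes on the leukocyte-typical list. Dock11 was at 30.8, 42.1 and 32.6 CPM in vector replicates 1, 2 and 3, highest in replicate 2 like the pan-leukocyte sum. In circEZH2_005 replicates 1, 2 and 3 it was at 60.3, 52.7 and 61.1 CPM, highest where that sum was lowest. The part of leukocyte RNA in these 5 calls was not tested.

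**Figure D5:**
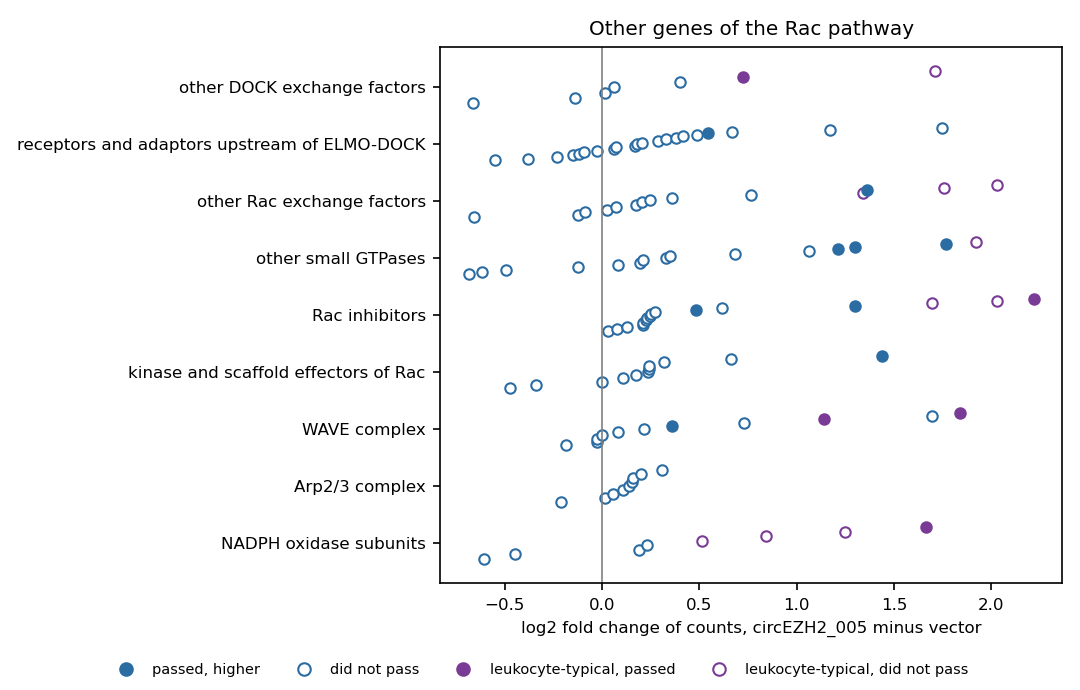
Log2 fold change of counts, circEZH2_005 minus vector, of the 112 tested pathway genes, 1 circle each, in 9 rows by list, filled where the gene passed edgeR's adjusted threshold and purple where it is leukocyte-typical. The 14 filled circles all lie above 0, and no Arp2/3 gene is among them.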

How the data were processed

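Poly(A)-selected RNA of 6 samples was sequenced, and the authors deposited 1 table of read counts and FPKM per gene and sample. The deposited counts are raw counts per gene, and the deposited FPKM values are scaled by the authors to gene length and library size. The submitters' processing notes name cutadapt 1.9, HISAT2 2.0.4, StringTie 1.3.4d, DESeq2 and mm10, with no role or order. The annotation, counting tool and strand setting are not given in the sources used here. Samples were grouped by their titles. The table's NC columns were taken as the vector group, and the number of unused columns of sample values was 0.

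Counts were tested with edgeR 4.0.16 in R 4.3.3 (quasi-likelihood test, filterByExpr, TMM, 2-sided, Benjamini-Hochberg over 18348 genes, calls at an adjusted p under 0.05), after a test on simulated data. SE is the log2 fold change over the root of the test statistic. Levels between genes were compared in FPKM. Alternatives were 2 other scalings, 2 other filters, DESeq2 1.42.0, limma 3.58.1 on log2(FPKM + 1) and log2(FPKM + 0.1) for genes averaging 0.5 FPKM or more, a replicate block, a rule of fold change over 2, and leaving out each sample. The total count per sample limits precision only for scarce genes, and counting error is the only error that the 3-count floor covers. The 9 members, the pathway lists and the marker lists were chosen with earlier results of these data known. The pathway genes named were, in each list, up to 4 that passed with a mean of at least 1 FPKM, or the 2 most abundant where none passed, and the other DOCK genes, of which 1 is not reported here. Promoters are from RefSeq, and shared exon bases from GENCODE M21, which holds 28678 of the 28752 identifiers.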

Additional observations from a re-analysis of the deposited data

How the results depend on the processing

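The 14 alternative fits leave out the rule of fold change over 2, which reads the same fit. Elmo1 was called higher under all 14 fits and by the fold rule (log2 fold change 0.75 to 1.23, lowest on log2(FPKM + 1)), and no member was called lower under any. The number of members called higher was 1, and it was 3 with a mean of at least 1 CPM (Elmo1, Elmo3 and Rac2), 6 by DESeq2, 3 by the fold rule (Elmo1, Dock2 and Rac2) and 1 to 3 when 1 sample was left out (3 without vector replicate 2, 2 without circEZH2_005 replicate 1). Dock1 changed sign under 2 alternatives without being called. Of the pathway lists, 14 genes were higher, against 4 with no filter, 32 by DESeq2, 9 and 8 by limma with a pseudocount of 1 and 0.1, and 0 to 22 when 1 sample was left out. The 0 lower calls there became 1 with median-of-ratios scaling, 2 with upper-quartile scaling, 2 with a mean of at least 1 CPM, 4 by DESeq2, 2 and 2 by limma, and 0 to 5 when 1 sample was left out. The most frequent of these genes were Limk2, Rnd3 and Noxa1, named after their values were seen. Over all genes, the 493 higher calls became 132 with no filter, 1644 by DESeq2, 323 by limma with 0.1, 1142 by the fold rule and 26 to 1098 with 1 sample left out. The 181 lower calls became 37 with no filter, 287 with a mean of at least 1 CPM, 846 by DESeq2, 364 and 319 by limma, and 2 to 334 with 1 sample left out. The lowest counts came without vector replicate 1 or 3 and the highest without vector replicate 2, and leaving out circEZH2_005 replicates 2 or 3 also moved the counts over all genes by more than 1.5 times. The cause was not tested.

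With the replicate block, 241 genes were higher and 36 lower, 5 pathway genes were higher, and Elmo1 was the 1 member called (log2 fold change 1.18). Samples with the same number did not deviate together (r = -0.14, -0.02 and 0.04 for replicates 1, 2 and 3). Such correlations over all genes cannot decide whether a number marks a shared animal or batch, which the sources used here do not say.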

Other observations

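Daglb, a diacylglycerol lipase gene on the strand opposite Rac1, was at 33.4, 30.9 and 39.7 CPM in vector and 20.6, 22.6 and 23.4 CPM in circEZH2_005 samples, while Rac1 was at 304, 286 and 291 CPM and 342, 418 and 351 CPM. The counts of the 2 genes thus moved in opposite directions across the groups. Of the 100-base windows of Rac1 transcripts, 52.4% are also found in Daglb, on either strand, and 0 to 0.125% of those of the other 8 members are found in any other gene.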
